A study of Arabidopsis thaliana with 12 samples.

Results

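The 3 libraries of the quadruple mutant *h1.1 h1.2 cdca7a cdca7b* were compared with the 3 libraries whose count tables are named *cdca7a cdca7b*, 6 of the 12 RNA-seq libraries of the study. Each library came from 14-day-old *Arabidopsis thaliana* seedlings of the Col-0 ecotype. The labels and the table names concur on the genotype of the quadruple mutant and disagree on that of the rest. The 3 tables named *cdca7a cdca7b* belong to samples titled *h1.1 h1.2*. By table names the comparison shows loss of the linker histones H1.1 and H1.2 in plants that already lack both CDCA7 proteins, and by titles it shows loss of both CDCA7 proteins in plants that already lack H1. Loss of H1 or of CDCA7 is therefore shared by both sides, under one naming or the other, and no library was reassigned from its values. The 6 remaining libraries were used for the estimate of the spread and as a second comparison. They are 3 tables named h1, titled Col-0, and 3 tables named col, titled *cdca7a cdca7b*. The *h1.1* and *h1.2* alleles are T-DNA insertions and the *cdca7* alleles were made by genome editing, per the study's methods, which also state that each replicate was 1 seedling. Alternative guide combinations are listed for each *cdca7* gene, and the *cdca7* mutations of the quadruple mutant were sequenced separately. Whether the quadruple and the *cdca7a cdca7b* mutants carry the same *cdca7* alleles is not stated. The methods give long days for growth, while the labels name soil in long days or plates in constant light without saying which applies to which library. No batch is given, and replicates are separate samples whose p-values measure the spread between these seedlings and libraries.

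Linker histone H1 binds the DNA between nucleosomes and is abundant in heterochromatin, the compact chromatin around plant centromeres where transposable elements (TEs) lie. The remodeller DDM1 opens such chromatin to DNA methyltransferases, and CDCA7 proteins are zinc-finger partners of remodellers of this family. Loss of DNA methylation at CG sites is known to release the transcription of TEs and of pseudogenes derived from them.

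Reads in the 6 tables numbered 25236235 to 35691432, of which 450869 to 661451 (1.56 to 2.38%) were counted on genes and 115994 to 144555 (0.368 to 0.472%) on TEs. Between 51.5 and 72.5% of the 35651 listed genes had 0 counts in a library. The genes with the most counts mostly overlapped a gene on the other strand. Among the 100 genes with the most counts, 93 (93%) had exons overlapping a gene on the other strand, against 7658 of 34879 annotated genes (22.0%) and 8.07% of the 11965 genes at 0 in all 12 libraries. AT5G54280, which overlaps the chlorophyll-binding protein gene *LHCB3* on the opposite strand, had 5595 to 11815 counts over the 12 libraries, while *LHCB3* had 27 to 697. The strand setting of the counting is not given in the sources used here. Of the genes tested below, 2688 (60.3%) had exons overlapping a gene on the other strand. A value below is a count of reads listed under an identifier, and which strand those reads came from was not tested. The targeted genes therefore check no genotype. *CDCA7a* (AT4G37110) had 0, 0 and 0 counts in the quadruple mutant and 0, 0 and 5 in the tables named *cdca7a cdca7b*, and *CDCA7b* (AT2G23530) had 0 in all 6. For *H1.1* (AT1G06760) the counts were 4, 6 and 5 in the quadruple mutant and 21, 1 and 0 in the other set, and *H1.2* (AT2G30620) had 7, 0 and 10 against 16, 3 and 9. The tables named col had 2 to 8 counts for *CDCA7a*, 0 to 1 for *CDCA7b*, 0 for *H1.1* and 0 to 2 for *H1.2*. Those named h1 had 2 to 10, 0 to 7, 2 to 10 and 1 to 15 in the same order. Of the targeted genes *H1.2* alone passed the filter on low counts, with a log2 fold change of -0.47 (SE 1.02) and an adjusted p of 0.897 in edgeR.

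Libraries stood apart within both sets. The 40 nuclear photosynthesis genes chosen as leaf markers took 3.97, 0.126 and 0.816% of gene counts in replicates 1, 2 and 3 of the tables named *cdca7a cdca7b*, against 0.199, 0.118 and 0.184% in the quadruple mutant and 0.109 to 0.134% in the 6 other libraries (exact two-sided permutation test, 3 against 3, p = 0.3, where 0.1 is the smallest p possible). All 40 had counts in replicates 1 and 3 of the tables named *cdca7a cdca7b*. They also did in quadruple mutant replicate 3, in replicate 1 of the tables named col and in replicate 2 of those named h1. *LHCB1.3* had 2588, 46 and 419 counts in the tables named *cdca7a cdca7b* and 52, 29 and 58 in the quadruple mutant. In quadruple mutant replicate 3 the chloroplast genome supplied 0.523% of gene counts, against 0.0210 to 0.0659% in the other 5, and the seed storage gene *CRC* (cruciferin) had 116 counts, against 0 to 2 in the other 5. Of the 7 seed storage and 4 floral markers none passed the filter, and the floral markers reached at most 3 counts, with *AG* at 0 throughout. Replicates 1, 2 and 3 of the tables named *cdca7a cdca7b* also had 51.5, 70.7 and 61.6% of genes at 0 counts, against 68.0 to 72.5% in the quadruple mutant. In these replicates 2.38, 1.67 and 2.07% of reads were counted on genes. The photosynthesis share is thus not a plain measure of leaf tissue, and what set these libraries apart was not tested. In bulk seedlings, fewer cells of a type and less RNA per cell cannot be told apart.

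**Figure D1:**
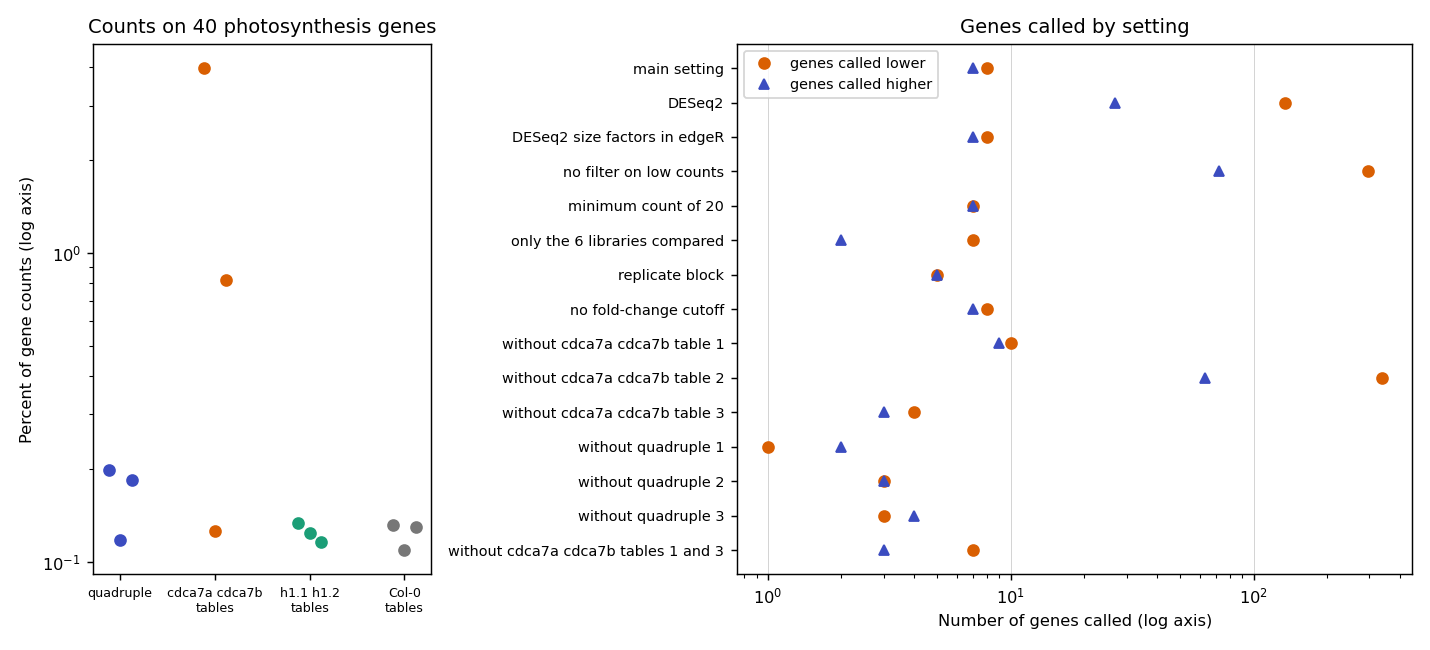
Left, share of gene counts on the photosynthesis genes in each of the 12 libraries, with 1 point per library on a log axis. Right, number of genes called lower and higher under each setting. The photosynthesis share reached 3.97% in 1 table named *cdca7a cdca7b* and lay between 0.109 and 0.199% in 10 of the 12 libraries.

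Which transcripts differed between the quadruple mutant and the tables named *cdca7a cdca7b* was tested first for genes. The quadruple mutant was lower for 8 genes and higher for 7. The genes that fell lay near centromeres and were 5 pseudogenes, 2 long noncoding RNA genes and 1 protein-coding gene, most of them with few or no counts in the quadruple mutant and in the 6 other libraries. The genes that rose were lower in the tables named *cdca7a cdca7b* and in those named col than in the quadruple mutant and in the tables named h1. The quasi-likelihood test of edgeR was run on 4461 genes, of which 8 (0.179%) were lower and 7 (0.157%) higher at an adjusted p under 0.05 and a log2 fold change of at least 1, and 328 and 229 at an unadjusted p under 0.05. The median log2 fold change over all genes tested was -0.04. The 3 libraries of one set did not overlap the 3 of the other for any of the 15, as was the case for 283 (6.34%) of tested genes in the lower and 336 (7.53%) in the higher direction.

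The number of calls depended on single libraries. Without *cdca7a cdca7b* replicate 2 (by table name), 337 genes were lower and 63 higher, and without *cdca7a cdca7b* replicate 3 these were 4 and 3. Without quadruple mutant replicate 1, 2 or 3, 1, 3 and 3 genes were lower and 2, 3 and 4 higher. Without *cdca7a cdca7b* replicate 1, in which the photosynthesis share was highest, 10 were lower and 9 higher. In these fits 4801 to 5392 genes passed the filter, against 4461 with all libraries, so the set of genes tested changed as well. The longer lists held the same 8 lower genes and many more. Over all genes tested, 38.1% had their highest level of the 3 *cdca7a cdca7b* libraries in replicate 1 and 8.36% lay within 3 Mb of a centromere. Of the 337, 328 (97.3%) were highest in replicate 1 and 13.6% lay within 3 Mb, and of the 135 lower genes of DESeq2, 124 were highest in that library and 14.1% lay within 3 Mb. Of the 8 lower genes of edgeR, 7 were highest in replicate 2 and none in replicate 1, and all 10 lower genes found without replicate 1 lay within 3 Mb. The part of the photosynthesis share in these counts was not tested beyond these values.

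Among the genes that fell, AT3G06465 had the most counts. It is annotated as a long noncoding RNA at chr3:14791174-14791781 on TAIR10.1, 0.791 Mb from the centromere position used here. It had 17, 38 and 11 counts in the quadruple mutant and 1142, 1640 and 1098 in the tables named *cdca7a cdca7b*, and 0 to 5 in each of the 6 other libraries. Every table of the *cdca7a cdca7b* set was thus far above each of the 9 others. The mean level was 46.3 ± 32.9 CPM (counts per 1000000 gene counts after TMM scaling, SD, n = 3) against 2209 ± 719 (SD, n = 3), a log2 fold change of -5.59 (SE 0.56, edgeR adjusted p = 0.00012). AT2G04735, also a long noncoding RNA (chr2:1421541-1421868), had 1, 0 and 1 counts against 40, 44 and 97, with 0 to 6 counts in the 6 other libraries. Summed over libraries it was 75.1-fold lower (95% interval of the counts 20.5 to 625, edgeR adjusted p = 0.0304). No annotated gene overlaps the exons of either locus on the other strand.

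The sequences of these loci are shown with AT5G26970, the gene with the largest rise, as examples of both directions, and because CG sites are where this methylation system acts. Each is 300 bases read from TAIR10.1 on the strand opposite to the annotated gene, 5′ to 3′, from the end of the annotated gene backwards, with CG dinucleotides in capitals. The stretches span chr3:14791482-14791781 (minus strand, 11 CG sites), chr2:1421569-1421868 (minus strand, 14 CG sites) and chr5:9486874-9487173 (plus strand, 8 CG sites).
AT3G06465: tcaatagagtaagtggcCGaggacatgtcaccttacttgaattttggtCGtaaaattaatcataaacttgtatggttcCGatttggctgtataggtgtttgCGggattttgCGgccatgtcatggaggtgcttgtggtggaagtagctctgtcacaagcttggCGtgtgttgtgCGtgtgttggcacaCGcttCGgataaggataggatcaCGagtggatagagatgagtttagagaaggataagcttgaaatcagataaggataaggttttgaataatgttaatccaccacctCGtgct
AT2G04735: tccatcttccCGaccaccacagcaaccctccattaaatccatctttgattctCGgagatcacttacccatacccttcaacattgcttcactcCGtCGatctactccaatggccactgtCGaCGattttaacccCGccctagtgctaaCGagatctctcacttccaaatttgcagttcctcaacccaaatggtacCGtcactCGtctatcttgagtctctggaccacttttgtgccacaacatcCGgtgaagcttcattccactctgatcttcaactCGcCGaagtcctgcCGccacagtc
AT5G26970: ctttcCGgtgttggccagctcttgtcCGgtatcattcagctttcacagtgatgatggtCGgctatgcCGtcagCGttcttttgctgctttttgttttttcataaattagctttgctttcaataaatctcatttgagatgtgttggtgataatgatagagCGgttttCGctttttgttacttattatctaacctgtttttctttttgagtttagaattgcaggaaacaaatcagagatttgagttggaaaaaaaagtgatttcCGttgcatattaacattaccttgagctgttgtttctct
Over whole genes, AT3G06465 held 5.10, AT2G04735 4.57 and AT5G26970 3.43 CG dinucleotides per 100 bases. The 4446 annotated genes tested had a median of 2.71 (quartiles 2.16 and 3.63), the 8 that fell 2.99 and the 7 that rose 3.02. Methylation of these sites was not analysed here.

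The remaining 6 genes that fell include 5 pseudogenes. AT2G10620 (chr2:4157220-4159324) had 0 counts in all 3 quadruple mutant libraries and 27, 51 and 31 in the tables named *cdca7a cdca7b*, at least 30.1-fold lower with 3 counts over the group in place of 0 (edgeR adjusted p = 0.0304). AT1G36630 (chr1:13840145-13847625) had 1, 0 and 4 counts against 63, 118 and 135 (log2 fold change -5.66, SE 0.70, adjusted p = 0.00643). AT5G29562 (chr5:11197050-11201681) had 0, 0 and 2 counts against 19, 52 and 49, a 49.8-fold difference of summed counts (95% interval 13.5 to 416, adjusted p = 0.0496), and its call was lost in 7 of 12 alternatives, with an adjusted p of up to 0.242. These 3 pseudogenes had 0 counts in all 6 other libraries, so that reads were listed for them almost solely in the tables named *cdca7a cdca7b*.

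The neighbouring pseudogenes AT2G15800 and AT2G15810 (chr2:6880825-6882741 and chr2:6882821-6886775) also fell, from a higher starting level. AT2G15800 had 72, 74 and 82 counts in the quadruple mutant and 448, 709 and 625 in the other set (log2 fold change -2.71, SE 0.43, adjusted p = 0.00952). AT2G15810 had 46, 54 and 56 counts against 395, 835 and 583 (log2 fold change -3.29, SE 0.64, adjusted p = 0.0387). Unlike the pseudogenes above, both had counts in every library, with 12 to 181 for AT2G15810 in the 6 other libraries. The 1 protein-coding gene, AT2G05915 (chr2:2263816-2264265), had 59, 68 and 68 counts against 372, 344 and 363 (log2 fold change -2.20, SE 0.30, adjusted p = 0.00418). Its exons are overlapped along their whole length (100%) by the long noncoding RNA gene AT2G05914 on the other strand, so its counts cannot be assigned to one of the pair.

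All 8 genes that fell lay within 3 Mb of a centromere, where 373 of the 4461 genes tested lay (8.36%), and 5 of the 8 were pseudogenes, a class with 59 tested members (1.32%). Windows were centred on 15, 4, 14, 4 and 12 Mb of chromosomes 1 to 5. Of the 8, 5 lay on chromosome 2, which held 675 of the genes tested. No test of the enrichment was made, since position and class were looked at with these results known.

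**Figure D2:**
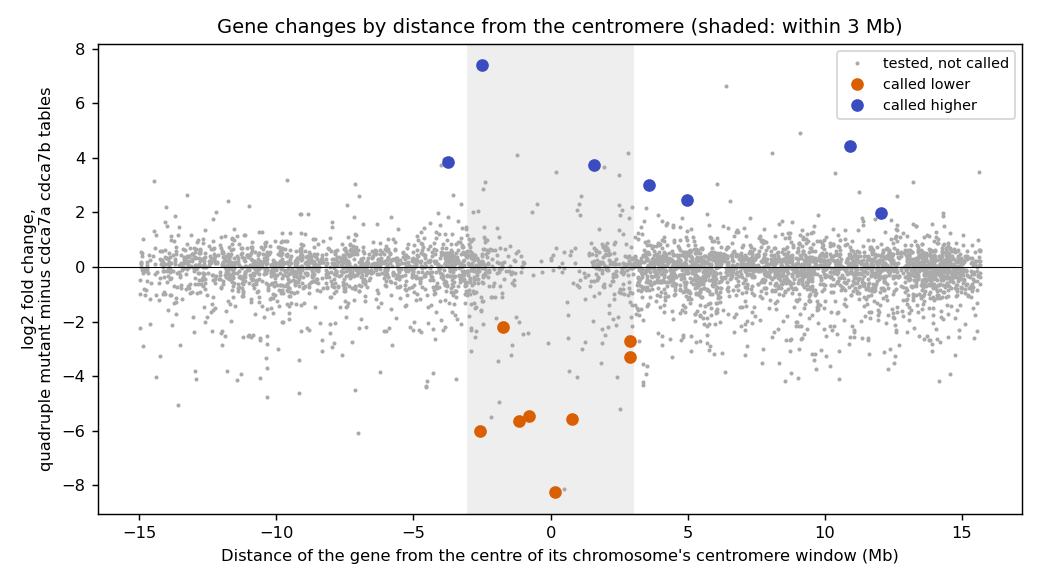
Log2 fold change of each tested gene, quadruple mutant against tables named *cdca7a cdca7b*, by its distance in Mb from the centromere position of its chromosome. The 8 genes that fell lie within the 3 Mb window and 5 of the 7 that rose lie outside it.

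Of the 7 genes that rose, AT5G26970 changed most. It is annotated as protein-coding with no described function (chr5:9486874-9487456). It had 56, 72 and 60 counts in the quadruple mutant and 0, 1 and 0 in the tables named *cdca7a cdca7b*, a 227-fold difference of summed counts (95% interval 40.2 to 8997, edgeR log2 fold change 7.39, SE 0.62, adjusted p = 9.63e-05). In the other 6 libraries it had 104, 116 and 118 counts in the tables named h1 and 0 in each table named col. Presence or near absence of its reads thus split the 12 libraries 6 against 6.

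The other genes that rose did so by smaller folds. AT2G08735, a long noncoding RNA (chr2:14907257-14907716), had 16, 25 and 19 counts against 0, 2 and 1, a 24.1-fold difference (95% interval 7.86 to 120.2, adjusted p = 0.0344). The call of AT2G08735 was lost in 8 of 13 alternatives. AT5G03715, another (chr5:8244584-8245112), had 43, 39 and 39 against 0, 2 and 8 (log2 fold change 3.86, SE 0.62, adjusted p = 0.00952), and 82.5% of its exon length is overlapped on the other strand by AT5G24275, annotated as En/Spm-like transposon. AT2G13430 (chr2:5590052-5591422) had 50, 60 and 36 against 2, 9 and 2 (log2 fold change 3.72, SE 0.59, adjusted p = 0.00952). Its exons are covered to 63.4% by the pseudogene AT2G13431 on the other strand.

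AT2G17490, a pseudogene (chr2:7598985-7602121), had 20, 18 and 47 counts in the quadruple mutant and 3, 5 and 4 in the other set (log2 fold change 3.01, SE 0.51, adjusted p = 0.0140). AT5G42490, a gene for a kinesin-like motor protein (chr5:16988280-16992754), had 67, 63 and 87 against 14, 15 and 18 (log2 fold change 2.46, SE 0.46, adjusted p = 0.0304). It overlaps *ARC6*, a gene of chloroplast division, over 13.9% of its exon length. AT5G59662, a long noncoding RNA (chr5:24039142-24040530), had 81, 83 and 91 against 37, 20 and 20 (log2 fold change 1.99, SE 0.30, adjusted p = 0.00773), and 42.4% of its exon length overlaps AT5G59660, a leucine-rich repeat kinase gene. In these last 3 genes reads were present in both sets, so the difference was one of level.

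**Figure D3:**
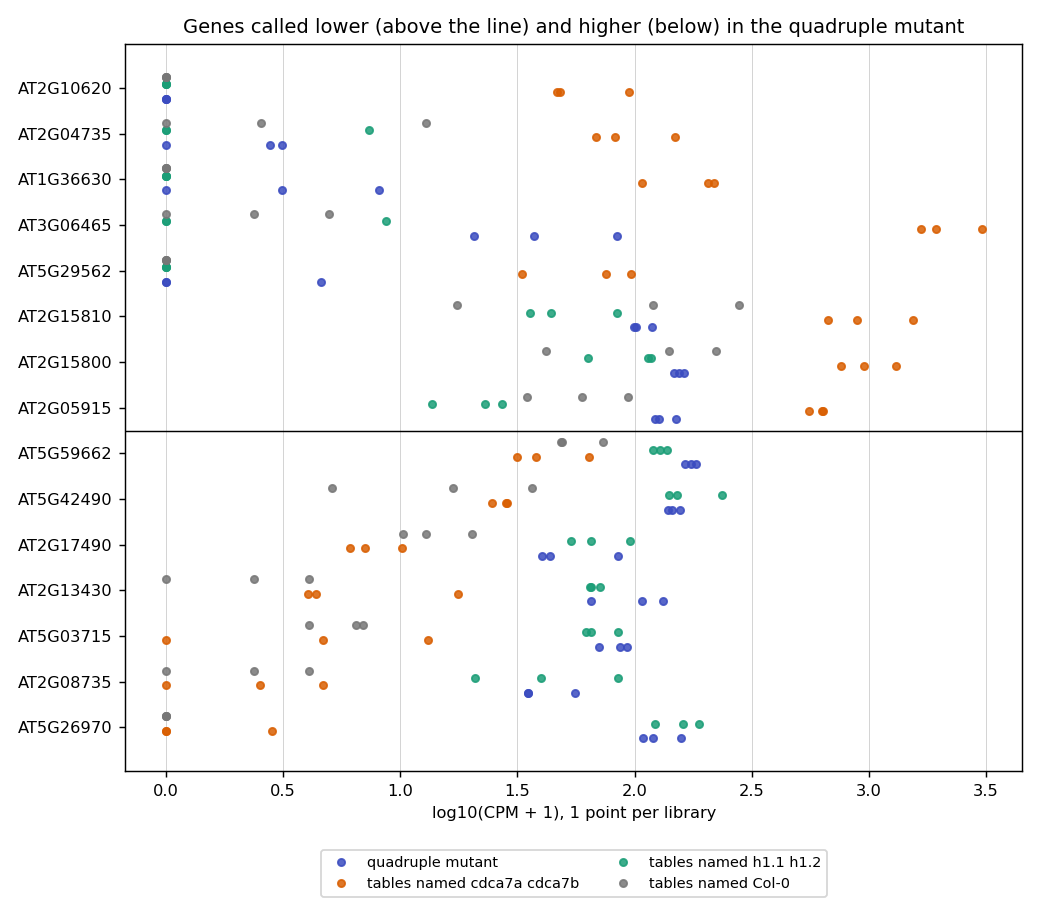
Level in each of the 12 libraries of the 15 genes called, as CPM on a log axis, with 1 point per library coloured by set. The tables named *cdca7a cdca7b* lie above the 9 others for the 8 genes that fell, and the quadruple mutant and the tables named h1 lie above the remaining 6 libraries for the 7 that rose.

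TEs were tested in the same way, with 753 of 31189 passing the filter. Most of the TEs that changed were lower in the quadruple mutant, and several had no read there at all. The data showed 19 (2.52%) that fell and 5 (0.664%) that rose, and 37 and 44 at an unadjusted p under 0.05. The median log2 fold change over all TEs tested was 0.11. None of the 24 overlapped between the sets, against 49 (6.51%) of TEs tested in the lower and 72 (9.56%) in the higher direction. Leaving out quadruple mutant replicate 2 gave 9 lower and 3 higher TEs, leaving out replicate 3 gave 3 higher, and leaving out *cdca7a cdca7b* replicate 3 gave 2 higher.

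The TE with the largest counts was AT2TE19615 on chromosome 2. It had 23, 30 and 36 counts in the quadruple mutant and 2357, 1901 and 1674 in the tables named *cdca7a cdca7b* (59.7 ± 9.27 against 3347 ± 738 CPM, SD, n = 3). In the other 6 libraries it had 2 to 19 counts. Its log2 fold change was -5.80 (SE 0.42, edgeR adjusted p = 1.05e-07), and every table of the *cdca7a cdca7b* set was far above the 9 others. AT2TE28020, with 74, 87 and 98 counts against 651, 1279 and 891, fell by 3.20 on the log2 scale (SE 0.59, adjusted p = 0.00361). AT4TE15420 had 2, 0 and 0 counts against 194, 398 and 141, a 304-fold difference of summed counts (95% interval 83.9 to 2516, adjusted p = 1.66e-05), and 0 to 2 counts in the 6 other libraries. Reads of AT4TE15420 were thus nearly limited to 1 of the 4 sets.

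In all, 5 TEs had 0 counts in all 3 quadruple mutant libraries. AT1TE45395 had 28, 63 and 66 counts in the tables named *cdca7a cdca7b*, at least 43.4-fold lower in the quadruple mutant (adjusted p = 0.00226). AT2TE16800 had 31, 85 and 33 counts there, at least 41.2-fold lower (adjusted p = 0.00308). The other 3 were AT3TE59470, AT2TE17550 and AT2TE17585, at least 24.9-, 21.0- and 19.9-fold lower. DESeq2 did not call AT1TE45395, AT2TE16800 or AT3TE59470. All 5 also had 0 counts in the 6 remaining libraries, so each was read in the tables named *cdca7a cdca7b* alone. The numbers in TE names follow chromosome order, and AT3TE59470 and AT3TE59460, or AT5TE40530 and AT5TE40510, are close in number and both fell. AT3TE59460 had 0, 0 and 1 counts against 29, 59 and 38, a 105-fold difference (95% interval 18.4 to 4162, adjusted p = 0.00287). AT5TE40530 had 0, 0 and 2 against 19, 109 and 84, an 87.9-fold difference (95% interval 24.0 to 731, adjusted p = 0.00308), and AT5TE40510 had 0, 3 and 4 against 29, 45 and 52. The call of AT5TE40530 was also lost in DESeq2 (adjusted p = 0.473).

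Further TEs that fell were AT4TE09080 (3, 0 and 1 counts against 63, 88 and 49), AT2TE19400 (4, 0 and 0 against 19, 39 and 37) and AT3TE50570 (2, 7 and 2 against 97, 57 and 60). These 3 had 0 counts in the 6 other libraries. AT3TE70700, AT4TE20400, AT5TE46175, AT2TE10600 and AT2TE28015 fell with log2 fold changes of -3.48, -2.62, -1.92, -1.90 and -1.57, from means of 32.2 to 220.02 CPM in the tables named *cdca7a cdca7b*. Calls were lost in 8 of 14 alternatives for AT2TE19400, in 9 of 14 for AT2TE10600 and in 7 of 14 for AT4TE20400. By chromosome, 1, 8, 4, 3 and 3 of the TEs that fell were on chromosomes 1 to 5, which held 164, 135, 145, 105 and 204 of the TEs tested. As for genes, the most were on chromosome 2.

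Among the 5 TEs that rose, AT3TE62100 changed most. It had 122, 146 and 48 counts in the quadruple mutant and 2, 1 and 1 in the tables named *cdca7a cdca7b* (log2 fold change 6.50, SE 0.65, adjusted p = 1.66e-05). AT5TE39170 had 14, 16 and 12 counts against 1, 0 and 0, a 50.6-fold difference (95% interval 8.60 to 2046, adjusted p = 0.0174). Both were close to silent in the tables named *cdca7a cdca7b*. AT5TE29800 had 15, 20 and 31 against 0, 2 and 2 (log2 fold change 4.18, adjusted p = 0.00361), AT2TE31290 had 21, 20 and 58 against 8, 10 and 8 (2.13, adjusted p = 0.0157) and AT4TE43140 had 31, 44 and 44 against 20, 20 and 15 (1.37, adjusted p = 0.0337). The call of AT4TE43140 was lost in 9 of 14 alternatives.

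The gene and TE tables count the same reads, and the pseudogene AT2G15810 and AT2TE28020, like AT2G17490 and AT2TE31290, had similar counts in each library, so gene and TE calls are not independent of each other. TE positions and families were not used here.

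**Figure D4:**
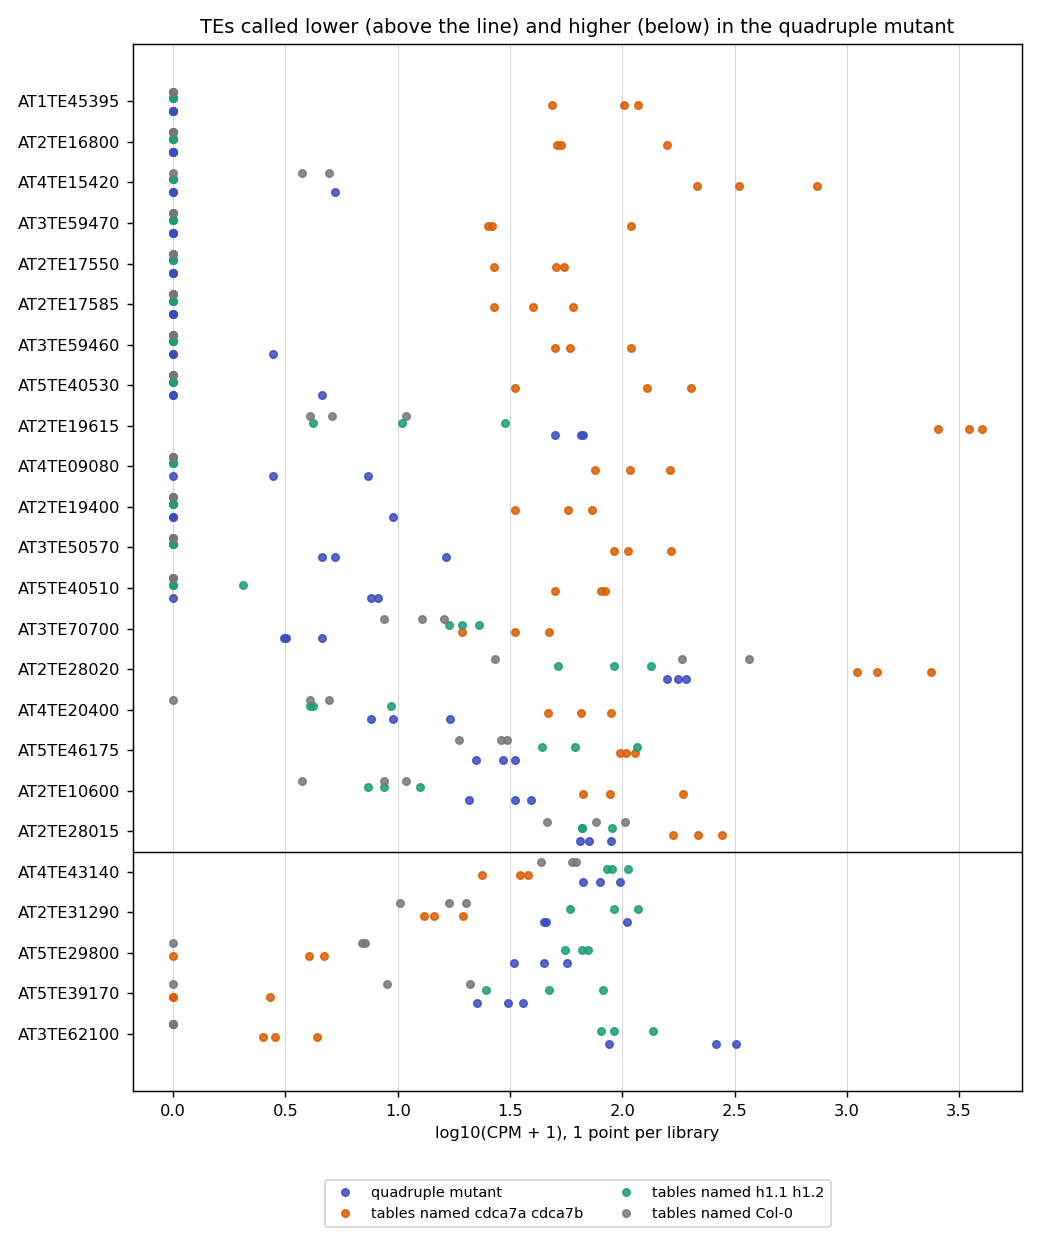
Level in each of the 12 libraries of the TEs called, as CPM on a log axis, with 1 point per library coloured by set. AT2TE19615 lies at 3347 CPM on average in the tables named *cdca7a cdca7b* and at 59.7 CPM in the quadruple mutant.

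The 6 libraries outside the comparison were read for where the called features stood in them. Most features that fell were highest in the tables named *cdca7a cdca7b*. For 25 of the 27 genes and TEs that fell, each of these 3 tables was above each of the 9 other libraries. This held for all 8 genes and for 17 of the 19 TEs, and for 85 of all genes tested (1.91%) and 23 of all TEs tested (3.05%). Of the 27, 13 had 0 counts in all 6 libraries of the other comparison. The exceptions were AT3TE70700, with 19, 25 and 12 counts in the tables named *cdca7a cdca7b* and 12, 21 and 10 in those named h1, and AT5TE46175, with 57, 61 and 68 against 75, 58 and 27. The 13 features at 0 in the other comparison passed the filter through the tables named *cdca7a cdca7b* alone. So did others with few counts elsewhere, such as AT2G04735 (0 to 6 counts in the 9 other libraries), AT4TE15420 (0 to 2) and AT5TE40510 (0 to 4). A call as lower without overlap already put these tables above the quadruple mutant. The pattern was thus partly fixed by the selection, which the shares over all features tested do not reflect.

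Features that rose were shared with the tables named h1. For all 7 genes and 5 TEs that rose, the quadruple mutant and the tables named h1 were above the 6 other libraries in CPM. These 6 are the tables named col and *cdca7a cdca7b*. The same held for 58 genes (1.3%) and 12 TEs (1.59%) of those tested. A call as higher without overlap already put the quadruple mutant above the tables named *cdca7a cdca7b*, as for 336 genes and 72 TEs tested. The pattern was thus partly fixed by the selection, which these shares do not reflect. AT5TE39170 met it narrowly, with 12 counts in quadruple mutant replicate 3 and 13 in replicate 1 of the tables named col. The tables named h1 against those named col give a comparison with other libraries, although from the same fit. By table names it is H1 loss in plants with CDCA7, and by titles it is Col-0 against *cdca7a cdca7b*. In it 17 genes (0.381%) and 14 TEs (1.86%) were higher in the tables named h1 at the same thresholds, and 2 genes (0.0448%) and 0 TEs were lower (126 and 15 at an unadjusted p under 0.05 in edgeR). The higher ones include 6 of the 7 genes and 3 of the 5 TEs that rose in the quadruple mutant, and all 12 were higher at an unadjusted p under 0.05, as were 211 of the 4461 genes and 66 of the 753 TEs tested. AT5G26970 had a log2 fold change of 9.59 there (SE 0.73, adjusted p = 2.97e-05) and AT3TE62100 one of 8.98 (SE 0.94, adjusted p = 3.25e-05). Both had 0 counts in each table named col, so these fitted sizes depend on the prior count that the fit adds. AT5G59662 did not pass, with 1.19 (SE 0.29, adjusted p = 0.143).

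Of the 27 features that fell, 14 had counts in those 6 libraries. Some of the 14 had too few for a call there, such as AT5TE40510 with 0 or 1 per library and AT4TE15420 with 0 to 2. None of the 14 was called by edgeR in either direction, and 1 was lower and 1 higher at an unadjusted p under 0.05. For those with so few counts, the lack of a call says nothing about a change. Whether the difference between the quadruple mutant and the tables named *cdca7a cdca7b* itself differed from that between the tables named h1 and col was tested as an interaction. By table names this asks whether the effect of H1 loss depends on CDCA7, and by titles it is another combination of the same 4 sets. No gene was called (134 positive and 212 negative at an unadjusted p under 0.05). Of TEs, 6 (0.797%) had a negative term and none a positive one (39 and 23 at an unadjusted p under 0.05). The 6 include 3 of the TEs that fell, AT2TE19615, AT3TE70700 and AT5TE46175.

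**Figure D5:**
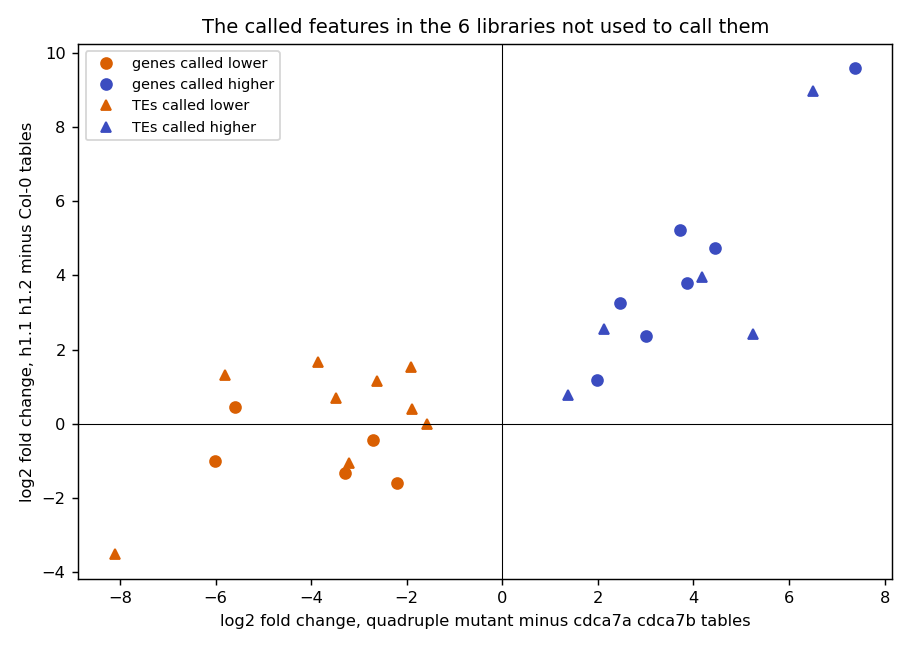
Log2 fold change of the called genes and TEs in the quadruple mutant against the tables named *cdca7a cdca7b*, and in the tables named h1 against those named col. The features that rose lie above 0 in both, from 0.78 to 9.59 in the second, and those that fell and had counts in the second lie between -3.53 and 1.66. The value of 9.59 is of AT5G26970, at 0 counts in the tables named col, and its size depends on the prior count.

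Genes that act in the silencing system itself gave little signal. Of 35 genes of DNA methylation and silencing, 1 passed the filter and 34 had a median under 10 counts in the 6 libraries. That gene, *MORC5*, of a family of silencing ATPases, had 94, 87 and 83 counts in the quadruple mutant and 108, 114 and 144 in the other set (log2 fold change -0.19, SE 0.21, adjusted p = 0.786). The demethylase genes *ROS1* and *DML3* had at most 19 and 12 counts. Of 6 loci known to be silenced by DNA methylation none passed the filter. *SDC*, an F-box gene, had 5, 3 and 10 counts against 0, 2 and 1. On the other strand AT2G17695 overlaps 80.2% of the exon length of *SDC*. *MRD1* had 2, 2 and 3 counts against 1, 0 and 0, and *QQS* went the other way with 0, 0 and 0 against 6, 0 and 1. Of the 3 linker histone genes *H1.3* had 0 counts in all 6 libraries. Apart from *MORC5* and *H1.2*, these genes had too few counts listed for a test, and the part of the strand of the counts in this was not tested.

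The photosynthesis genes moved with single libraries. Of the 40, 34 were tested and 0 called by edgeR, with a median log2 fold change of -3.60 against -0.04 over all genes tested and a smallest adjusted p of 0.0654. At an unadjusted p under 0.05, 33 of them were lower, against 328 of all 4461 genes tested, and DESeq2 called 29 of them lower, against 135 of 5677. *LHCB1.3* and *LHCB1.5*, which encode chlorophyll-binding proteins, had log2 fold changes of -4.19 (SE 0.91) and -4.09 (SE 0.95). *RBCS1A*, a small subunit of Rubisco, had one of -3.27 (SE 0.87), with 86, 42 and 89 counts in the quadruple mutant and 2140, 35 and 338 in the other set. In replicate 2 of that set it was thus below all 3 quadruple mutant libraries. Leaving out replicates 1 and 3 of it, a choice made after seeing the data, gave log2 fold changes of 0.10, 0.61 and 1.14 for *LHCB1.3*, *LHCB1.5* and *RBCS1A*. That set is then a single library, assumed to vary like the other sets. With it 7 genes were lower and 3 higher, of which 5 and 3 were among the calls above, and 13 TEs were lower and 2 higher, of which 11 and 1 were.

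Library-wide values were also compared. Genes within 3 Mb of a centromere took 6.48, 6.63 and 6.70% of gene counts in the quadruple mutant and 7.44, 7.82 and 7.03% in the tables named *cdca7a cdca7b*. This share includes the 8 genes that fell. Without the 15 genes called it was 6.42, 6.56 and 6.65% against 7.09, 7.13 and 6.57%, so that the sets overlapped, and it was 6.20 to 7.44% in the 6 other libraries. TE counts per 100 gene counts were 25.8, 25.1 and 23.6 in the quadruple mutant and 19.5, 28.2 and 20.04 in the other set, and here the sets overlapped (exact permutation p = 0.4).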

How the data were processed

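RNA was sequenced from 12 libraries made from 500 ng of total RNA each with a strand-specific mRNA kit. The authors trimmed reads (Trim Galore 0.6.7), aligned them to TAIR10 (STAR 2.7.11a), kept unique alignments with under 5% mismatches and counted them with HTSeq 0.13.5. The deposited values are raw counts per gene and per TE, with no normalization. The 5 summary lines of each table, which held 97.6 to 99.6% of reads as not assigned to a feature, were left out. Sets were formed and named by the table names, with the titles given beside them. The titles group the same libraries together.

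Gene counts of all 12 libraries entered 1 edgeR model (version 4.0.16, R 4.3.3) with 4 set means, TMM factors and filterByExpr, tested by quasi-likelihood, and TEs used the library sizes of the genes. Benjamini-Hochberg adjustment ran over every gene or TE tested. Calls needed an adjusted p below 0.05 and a log2 fold change of 1 or more in size. Standard errors come from the fold change and its F statistic. The script was tested on simulated data. Ratios of summed counts have exact 95% intervals, which cover counting error only, and 3 counts replace 0 over a set. Named were the targeted genes, up to 12 genes and 12 TEs per direction with the largest change among those called whose sets did not overlap, and members of the gene lists that were called or highest, and the other TEs called were named after their values were seen. The members and lists were chosen with earlier results of these data known. Alternatives were DESeq2 1.42.0, its size factors, the filter (none, or a minimum count of 20), only the 6 libraries compared, a replicate block, no fold cutoff, TE library sizes and each of the 6 compared libraries left out. Python 3.11.15, pandas 2.3.3, scipy 1.17.1 and matplotlib 3.10.9 were used. Positions are on TAIR10.1, which annotates 34879 of 35651 gene identifiers. Bisulfite sequencing data were not analysed here.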

Additional observations from a re-analysis of the deposited data

Results flagged for a closer look

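For 6 TEs the difference between the quadruple mutant and the tables named *cdca7a cdca7b* was not the same as that between the tables named h1 and col, by the interaction term of the edgeR fit. The terms on the log2 scale were -10.89 for AT1TE93275, -7.11 for AT2TE19615, -4.18 for AT3TE70700, -3.40 for AT5TE46155, -2.73 for AT5TE46165 and -3.46 for AT5TE46175. AT1TE93275 had 155, 147 and 241 counts in the quadruple mutant, 203, 197 and 185 in the tables named *cdca7a cdca7b*, 321, 373 and 242 in those named h1 and 0 in each of those named col, so its term comes from the second pair and its fitted size depends on the prior count. The tables named col were likewise the lowest set for AT5TE46155 (12 to 26 counts, against 82 to 310 in the other 9 libraries) and AT5TE46165 (54 to 90 counts, against 162 to 537). For AT2TE19615 the tables named *cdca7a cdca7b* alone stood apart. The causes were not tested.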

How the results depend on the processing

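Against 8 lower and 7 higher genes and 19 lower and 5 higher TEs, DESeq2 called 135 and 27 genes and 13 and 4 TEs, and no filter on low counts gave 296 and 72 genes and 33 and 15 TEs, with more features tested. Only the 6 libraries compared gave 7 and 2 genes and 19 and 4 TEs. The replicate block gave 5 lower and 5 higher genes and 16 and 4 TEs, and each of the 5 lower genes was among the 8. Deviations from the set means of libraries with the same number correlated at 0.156, 0.134 and 0.058 for genes and at 0.060, 0.071 and -0.073 for TEs, and pairing was not assumed, although for genes each library correlated best with its own number. Leaving out each of the 6 compared libraries in turn gave 1 to 337 lower and 2 to 63 higher genes and 9 to 22 lower and 2 to 6 higher TEs. More genes were tested in each of these fits than with all libraries. Without *cdca7a cdca7b* replicates 1 and 3, named by table and chosen after seeing the data, 3 genes and 2 TEs were higher, and the log2 fold changes of *LHCB1.3* (0.10), *RBCS1A* (1.14), *LHCB1.5* (0.61) and *H1.2* (0.94) turned positive, as did that of *H1.2* (-0.98 to 0.17 over the libraries left out) without *cdca7a cdca7b* replicate 1 (0.17) or quadruple mutant replicate 2 (0.16). DESeq2 size factors, a minimum count of 20, no fold cutoff and TE counts as library sizes kept each count within 1.5 times. Of the calls named, 2 of 15 genes (AT3G06465 and AT5G26970) and 6 of 24 TEs (AT4TE15420, AT3TE59460, AT2TE19615, AT4TE09080, AT2TE28020 and AT3TE62100) passed under every alternative, and none of the 39 changed sign. Interaction terms without the filter gave 26 positive and 94 negative genes and 1 positive and 11 negative TEs, and with the replicate block 0 genes and 0 positive and 5 negative TEs. Beyond these settings the causes were not tested. At most 661451 gene counts in a library limit what can be seen of weakly expressed genes.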
